A study of Homo sapiens with 12 samples.

Results

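The genes described here encode the granins and prohormone-processing proteins of the dense-core secretory granule. They were chosen by symbol: CHGA, CHGB, SCG2, SCG3, SCG5, PCSK1, PCSK1N, PCSK2, CPE and SECISBP2L, which makes 10 of the 60660 gene identifiers listed for every library. SECISBP2L was chosen with the others, but its product is not a granule protein. It is a relative of SECISBP2, the factor that binds the selenocysteine insertion element of selenoprotein mRNAs. Of the 10 genes, 8 had 1 TPM or more in 2 or more libraries and were tested, and PCSK1 and PCSK2 did not.

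Dense-core granules store peptide hormones and catecholamines in neuroendocrine cells, and granins are their acidic, aggregating cargo proteins. Granins are themselves precursors: prohormone convertases cut them and other prohormones after pairs of basic residues, and carboxypeptidase E then removes those residues. Neuroblastoma arises from the sympathoadrenal lineage, and chromogranin A is a widely used marker of such cells.

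The RNA came from 3 derivatives of Kelly, a MYCN-amplified human neuroblastoma line described by the submitters as adrenergic. The derivatives carry a doxycycline-inducible short hairpin RNA against RCOR2 (shRCOR2) or RCOR1 (shRCOR1), or one with no target (shCTRL). RCOR1 and RCOR2 encode scaffold proteins of the CoREST corepressor complex, and the study was set up to learn what each does in transcription. The 6 groups, of 2 libraries each, were shRCOR2 cells with doxycycline (here called induced) and untreated shRCOR2 cells, induced and untreated shRCOR1 cells, and induced and untreated shCTRL cells. Doxycycline was given at 2 µg/mL to the induced groups. The sample labels give 72 h for every group, whereas the treatment protocol names other, shorter times. The labels do not say whether a line is 1 clone or a pool, nor do they state that replicates were cultured separately, and p-values therefore reflect only the spread among these libraries, which may be technical.

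Between 14758 and 16026 genes reached 1 TPM per library, and mitochondrial transcripts took 13.3% to 21.4% of all TPM, with replicate 2 the higher one in each group. All 8 adrenergic markers were found, with a sum of 3553 to 6198 TPM per library. Of the markers of other cell types, COL1A1 had 6.43 to 87.3 TPM, the epithelial marker EPCAM 0.143 to 4.13 TPM, and the leukocyte markers CD14 0.0410 to 0.308 TPM and PTPRC at most 0.0478 TPM. CD3E and KRT5 were listed at 0 in every library. RCOR2 had 17.7 and 20.5 TPM in induced shRCOR2 cells and 55.4 and 49.9 TPM in untreated ones, and it also fell in the shRCOR1 line (−0.94 ± 0.11, SE, on the log2 scale). RCOR1 had 4.80 and 5.07 TPM in induced shRCOR1 cells and 8.32 and 9.08 TPM in untreated ones (−0.71, and −0.77 to −0.65 when a library was left out). In shCTRL the induced and untreated means were 46.2 and 52.4 TPM for RCOR2, and 8.99 and 9.82 TPM for RCOR1. Against the shCTRL change, limma called RCOR2 in shRCOR2 (−1.24) but neither gene in shRCOR1. With the replicate number as a block, 2 of the 4 genes RCOR1, RCOR2, RCOR3 and REST were called lower there. TPM is a share of the RNA in a library, so in these bulk samples fewer cells making a transcript and less of it per cell cannot be told apart.

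Promoters are shown for SCG3 and SCG5, which were expressed in these cells, and for PCSK1, which was nearly silent. Each window runs from 250 bases before to 50 bases after a start site in RefSeq (GRCh38.p14), whose table held 8 of the 10 genes. For PCSK1 it holds another window too, which lies further into the gene and has none of the letters searched. Capitals mark the cyclic AMP response element TGACGTCA where the window holds it, and otherwise its core TGACG on either strand (CGTCA when read on the reverse strand). The SCG3 window is chr15:51681253-51681552 on the plus strand, the SCG5 window chr15:32641460-32641759 on the plus strand and the PCSK1 window chr5:96433199-96433498 on the minus strand.
SCG3: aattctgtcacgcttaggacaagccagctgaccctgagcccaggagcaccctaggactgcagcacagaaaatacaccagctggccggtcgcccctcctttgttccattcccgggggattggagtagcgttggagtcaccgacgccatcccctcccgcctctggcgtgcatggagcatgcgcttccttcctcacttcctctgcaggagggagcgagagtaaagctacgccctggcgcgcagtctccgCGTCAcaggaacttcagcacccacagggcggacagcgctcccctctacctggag
SCG5: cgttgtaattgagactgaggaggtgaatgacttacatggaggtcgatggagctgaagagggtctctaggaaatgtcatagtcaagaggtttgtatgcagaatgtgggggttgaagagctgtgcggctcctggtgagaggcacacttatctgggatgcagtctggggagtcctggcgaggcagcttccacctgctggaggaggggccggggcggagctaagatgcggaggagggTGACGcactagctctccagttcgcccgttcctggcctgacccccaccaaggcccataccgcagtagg
PCSK1: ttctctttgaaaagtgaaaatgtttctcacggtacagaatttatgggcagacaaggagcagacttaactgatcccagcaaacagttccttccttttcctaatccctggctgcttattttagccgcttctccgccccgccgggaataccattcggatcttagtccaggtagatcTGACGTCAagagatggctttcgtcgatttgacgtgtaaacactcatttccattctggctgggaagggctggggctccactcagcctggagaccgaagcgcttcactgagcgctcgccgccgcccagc
The full element started at position −77 from the PCSK1 start site, and the PCSK1 window holds a further core, left in lower case, at −49. The full element was in 1.85% of the 35116 RefSeq promoter windows searched on both strands. The TGACG core, which also lies within the full element, was at −4 in SCG3 and −17 in SCG5, and 24.6% of windows hold it. CPE has the core at −221 and −120, PCSK2, which was nearly silent like PCSK1, has it at −157 in one window and −96 in another, PCSK1N has an AP-1 site (TGANTCA, in 7.71% of windows) at −246, and SECISBP2L has none of these letters. These matches are descriptions of the sequence, and nothing was measured here on the factors that bind such sites.

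On the TPM scale, which is corrected for transcript length, CHGA stood far above the other members. It averaged 2184 TPM over the 12 libraries and ranked 54th of the 16842 genes tested. CHGB averaged 214 TPM, SCG3 102 TPM, CPE 67.7 TPM, SCG2 53.9 TPM, SCG5 23.9 TPM, SECISBP2L 15.0 TPM and PCSK1N 11.8 TPM. PCSK1 was listed at 0 in 10 libraries and did not exceed 0.0115 TPM, and PCSK2 was listed at 0 in 8 libraries and did not exceed 0.0285 TPM. The cells thus contained granin mRNA, including that of the binding partners of both convertases, with next to none of the mRNA of the convertases themselves. Together the members made up 0.145% to 0.372% of all TPM. Annotated genes that overlap a member were low, the highest being HADHAP1 on the strand opposite CPE with 0.609 to 1.02 TPM.

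**Figure D1:**
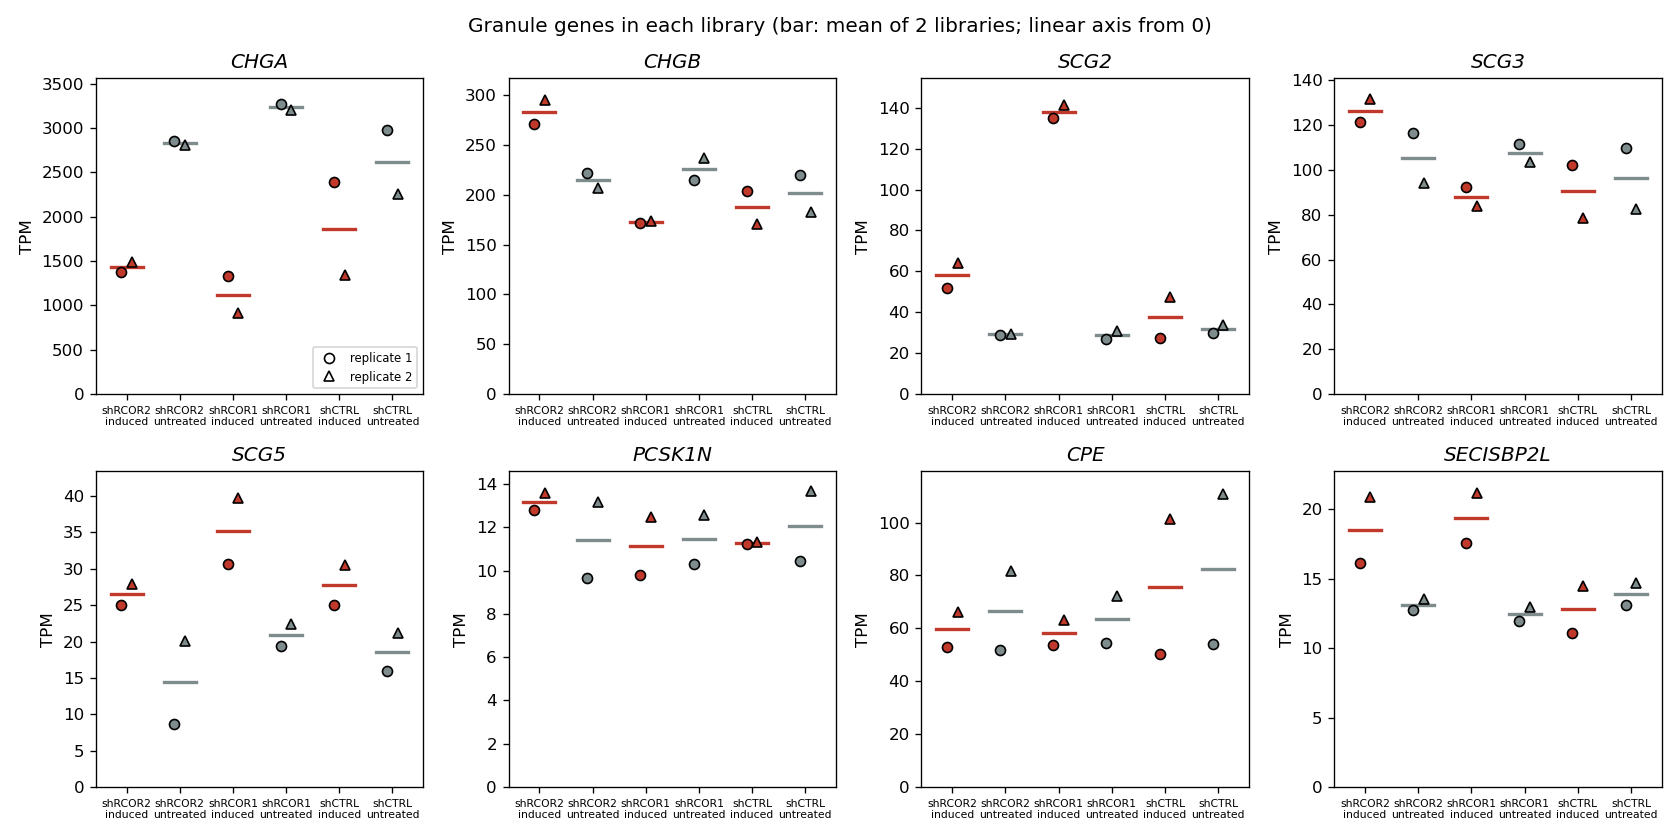
TPM of the 8 tested members in each library, on linear axes from 0, by group; circles are replicate 1, triangles replicate 2 and bars the mean of 2 libraries, with induced groups in red and untreated groups in grey. CHGA lies between 910 and 1492 TPM in induced knockdown cells and between 2807 and 3272 TPM in the untreated cells of those lines, and SCG2 stands highest in induced shRCOR1 cells.

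CHGA (ENSG00000100604.13, chr14:92923150-92935285, plus strand, coordinates of GRCh38/hg38 as in the files) encodes chromogranin A, a driver of granule formation and the precursor of several peptides. It had 1376 and 1492 TPM in induced shRCOR2 cells, against 2854 and 2807 TPM in untreated shRCOR2 cells. In the shRCOR1 line it had 1331 and 910 TPM in induced cells, against 3272 and 3202 TPM in untreated cells. In the shCTRL line it had 2389 and 1338 TPM in induced cells, against 2975 and 2259 TPM in untreated cells. The groups did not overlap in either knockdown line, while they did in the shCTRL line, whose 2 induced libraries differed widely. How many of all genes separate in this way was not counted, so here and below a lack of overlap is a description only. CHGA fell by 0.98 ± 0.28 (SE) on the log2(TPM + 1) scale in shRCOR2 cells (limma, adjusted p = 0.0487). It fell by 1.55 ± 0.28 in shRCOR1 cells (adjusted p = 0.0122), to 0.340 times the untreated level. In shCTRL cells the difference was −0.54 ± 0.28 (adjusted p = 0.927).

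The fall of CHGA was not separated from the shift in shCTRL cells. Its change differed from the shCTRL change by −0.45 ± 0.39 in shRCOR2 (adjusted p = 0.658) and by −1.02 ± 0.39 in shRCOR1 (adjusted p = 0.286). The shRCOR2 call was lost when any library but the 2 induced shCTRL libraries was left out (values −1.04 to −0.92, adjusted p of up to 0.203). It was also lost with no filter (adjusted p = 0.127), with FPKM (adjusted p = 0.0627) and with median-of-ratios scaling (adjusted p = 0.0776). The shRCOR1 call was lost without untreated replicate 1 (−1.54), untreated replicate 2 (−1.57) or induced replicate 2 (−1.28) of that line. Ordered by mean, CHGA was 3237 ± 49.5 TPM (SD, n = 2 in each group) in untreated shRCOR1, 2830 ± 32.6 in untreated shRCOR2, 2617 ± 506 in untreated shCTRL, 1864 ± 744 in induced shCTRL, 1434 ± 81.5 in induced shRCOR2 and 1121 ± 298 in induced shRCOR1 cells. Neighbours in this order overlapped except at both ends.

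SCG2 (ENSG00000171951.5, chr2:223596940-223602361, minus strand) encodes secretogranin II, the precursor of the neuropeptide secretoneurin, and it moved the other way. It had 52.0 and 64.2 TPM in induced shRCOR2 cells, against 28.98 and 29.4 TPM in untreated shRCOR2 cells. It had 135 and 141 TPM in induced shRCOR1 cells, against 26.8 and 31.0 TPM in untreated shRCOR1 cells. In the shCTRL line it had 27.5 and 47.5 TPM in induced cells, against 29.6 and 33.6 TPM in untreated cells. Both knockdown lines were above their untreated libraries without overlap, and induced shRCOR1 was above every other library of the series. SCG2 rose by 0.96 ± 0.22 in shRCOR2 (limma, adjusted p = 0.0242) and by 2.22 ± 0.22 in shRCOR1 (adjusted p = 0.00128), which is 4.66-fold in shRCOR1. In shCTRL the difference was 0.19 ± 0.22 (adjusted p = 0.989).

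The rise of SCG2 in shRCOR1 exceeded the change in shCTRL by 2.03 ± 0.31 (limma, adjusted p = 0.0274), and the shRCOR2 change fell short of the shRCOR1 change (−1.26 ± 0.31, adjusted p = 0.0372). The shRCOR2 change was not shown to differ from the shCTRL change (0.77 ± 0.31, adjusted p = 0.251). SCG2 in shRCOR1 kept its call when any single library was left out (2.12 to 2.32). Its call in shRCOR2 was lost when any of the 4 shRCOR2 libraries was left out (0.81 to 1.11) and with no filter on low values (adjusted p = 0.0602). The excess over shCTRL ended when any library but the 2 induced shCTRL libraries was left out (1.64 to 2.41 over all 12 fits, adjusted p of up to 0.130), and so did the difference between the knockdown lines (−1.41 to −1.11, adjusted p of up to 0.133). That difference was also lost with no filter (adjusted p = 0.0850) and without mitochondrial genes (adjusted p = 0.0694).

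CHGB (ENSG00000089199.10, chr20:5911510-5925353, plus strand) encodes chromogranin B, another abundant granule matrix protein. It had 271 and 295 TPM in induced shRCOR2 cells, against 222 and 207 TPM in untreated shRCOR2 cells. It had 172 and 173 TPM in induced shRCOR1 cells, against 215 and 236 TPM in untreated shRCOR1 cells. In shCTRL it had 204 and 170 TPM in induced cells, against 220 and 183 TPM in untreated cells. The induced libraries thus lay above the untreated ones in shRCOR2, below them in shRCOR1 and among them in shCTRL. Within lines CHGB was not called in limma (0.40 ± 0.13, adjusted p = 0.0685 in shRCOR2, and −0.39 ± 0.13, adjusted p = 0.101 in shRCOR1). A fit with the replicate number as a block, which allows for a shift between replicate 1 and replicate 2, called both (adjusted p = 0.0222 in shRCOR2 and 0.0317 in shRCOR1). In shRCOR2 it also passed with FPKM (adjusted p = 0.0479), with quantile normalization (0.0186) and without either induced shCTRL library. The change in shRCOR2 minus the change in shRCOR1 was 0.78 ± 0.18 (adjusted p = 0.0264). That difference was lost when any of the 8 knockdown-line libraries was left out (0.72 to 0.85, adjusted p of up to 0.0990) and with median-of-ratios scaling (adjusted p = 0.0810).

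SCG3 (ENSG00000104112.9, chr15:51681492-51721026, plus strand) encodes secretogranin III, which binds chromogranin A and the granule membrane. It had 121 and 131 TPM in induced shRCOR2 cells, against 116 and 94.0 TPM in untreated ones. It had 92.3 and 84.0 TPM in induced shRCOR1 cells, against 112 and 103 TPM in untreated ones. In shCTRL it had 102 and 78.5 TPM in induced cells, against 110 and 82.7 TPM in untreated cells. SCG3 followed the order seen for CHGB, with smaller differences that were not called (limma: 0.27 ± 0.18 in shRCOR2 and −0.29 ± 0.18 in shRCOR1). The change in shRCOR2 minus that in shRCOR1 was 0.55 ± 0.25 (adjusted p = 0.200), and it was called with the replicate block (adjusted p = 0.0388).

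SCG5 (ENSG00000166922.8, chr15:32641676-32697098, plus strand) encodes the chaperone and inhibitor of the convertase made from PCSK2. It had 25.0 and 28.0 TPM in induced shRCOR2 cells, against 8.73 and 20.0 TPM in untreated ones. It had 30.7 and 39.8 TPM in induced shRCOR1 cells, against 19.4 and 22.4 TPM in untreated ones. In shCTRL it had 25.0 and 30.6 TPM in induced cells, against 15.9 and 21.1 TPM in untreated cells. SCG5 was the member whose induced libraries stood above the untreated ones in all 3 lines, the control line included. None of these differences was called (limma: 0.94 ± 0.32, adjusted p = 0.0866 in shRCOR2; 0.72 ± 0.32, adjusted p = 0.218 in shRCOR1; 0.57 ± 0.32, adjusted p = 0.945 in shCTRL). With the replicate block SCG5 was called in shRCOR2 (adjusted p = 0.00781) and shRCOR1 (adjusted p = 0.0300) but not in shCTRL (adjusted p = 0.249). Its change in shRCOR2 exceeded that in shCTRL by 0.37 ± 0.46 and its change in shRCOR1 by 0.15 ± 0.46, with neither called in either fit. The shRCOR2 value rests on untreated replicate 1, without which it was 0.38, while it was 1.498 and called (adjusted p = 0.0205) without untreated replicate 2.

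PCSK1N (ENSG00000102109.9, chrX:48831096-48835610, minus strand) encodes proSAAS, a granin-like inhibitor of the convertase made from PCSK1. It had 12.8 and 13.6 TPM in induced shRCOR2 cells, against 9.67 and 13.2 TPM in untreated ones, and stayed between 9.67 and 13.7 TPM in all 12 libraries. No difference was called (limma: 0.20 ± 0.19 in shRCOR2, −0.04 ± 0.19 in shRCOR1 and −0.08 ± 0.19 in shCTRL). PCSK1 (chr5:96390333-96434143, minus strand) and PCSK2 (chr20:17226107-17484578, plus strand) encode the convertases of the regulated secretory pathway. PCSK1 was listed above 0 in 1 induced shRCOR2 library (0.0115 TPM) and 1 induced shCTRL library (0.00850 TPM). PCSK2 was listed above 0 in 1 library each of induced shRCOR1, untreated shRCOR1, untreated shRCOR2 and induced shCTRL cells. Neither shows a change that these values could resolve.

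CPE (ENSG00000109472.14, chr4:165361194-165498547, plus strand) encodes carboxypeptidase E, which trims basic residues from cut prohormones. It had 52.9 and 66.4 TPM in induced shRCOR2 cells, against 51.8 and 81.7 TPM in untreated ones. It had 53.6 and 63.1 TPM in induced shRCOR1 cells, against 54.6 and 72.3 TPM in untreated ones. In shCTRL it had 50.3 and 101 TPM in induced cells, against 54.0 and 111 TPM in untreated cells. Induced and untreated libraries overlapped in all 3 lines, while replicate 2 was above replicate 1 in all 6 groups. The differences were −0.13 ± 0.41 in shRCOR2, −0.11 ± 0.41 in shRCOR1 and −0.11 ± 0.41 in shCTRL (limma, none called). Replicate 2 was also above replicate 1 in 6 of 6 groups for SCG2, SCG5, PCSK1N and SECISBP2L, and the mitochondrial share of TPM ran the same way; its part in these values was not tested. The ratio of deposited coverage to FPKM was 2.94% to 2.95% of the upper level it reached in the same library for CPE and 12.9% to 14.1% for SCG5. It was 54.5% to 99.5% for the other 6 tested members, so the levels of CPE and SCG5 depend more than theirs on which deposited unit is read.

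SECISBP2L (ENSG00000138593.9, chr15:48988476-49046447, minus strand), the gene outside the granule, had 16.1 and 20.9 TPM in induced shRCOR2 cells, against 12.7 and 13.6 TPM in untreated ones. It had 17.5 and 21.1 TPM in induced shRCOR1 cells, against 11.9 and 12.96 TPM in untreated ones. In shCTRL it had 11.1 and 14.5 TPM in induced cells, against 13.1 and 14.7 TPM in untreated cells. Both knockdown lines stood above their untreated libraries without overlap, at 1.41 and 1.56 times the untreated mean, and the shCTRL groups overlapped. The differences missed the threshold (limma: 0.45 ± 0.17, adjusted p = 0.112 in shRCOR2; 0.59 ± 0.17, adjusted p = 0.0675 in shRCOR1). With the replicate block they were called in shRCOR2 (adjusted p = 0.00850) and shRCOR1 (adjusted p = 0.00343), as was the excess over shCTRL in shRCOR2 (0.57, adjusted p = 0.0301) and in shRCOR1 (0.71, adjusted p = 0.0184). The shRCOR1 difference also passed with FPKM (adjusted p = 0.0451), coverage (0.0388), median-of-ratios scaling (0.0311) and quantile normalization (0.0212), and without either induced shCTRL library. The shRCOR2 difference passed with FPKM (adjusted p = 0.0403).

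Counted over the set, 2 of the 8 tested members were called in shRCOR2 (CHGA lower, SCG2 higher), beside 14.3% of all genes tested. In shRCOR1 the same 2 genes were called, beside 8.62% of all genes. In shCTRL 0 members were called, beside 0% of all genes. In the fit without the replicate block, none of the members, and 938 of all genes, had an unadjusted p under 0.05 there. With the block 2 of the 8 members did (CHGA lower, SCG5 higher), beside 2642 of all genes. Of the differences from shCTRL, 0 members passed in shRCOR2 and 1 passed in shRCOR1 (SCG2), beside 2.09% and 1.28% of all genes. An unadjusted p under 0.05 was found for 3 members in each, beside 2926 and 2357 of all genes. Between the knockdown lines, 2 passed (CHGB and SCG2), beside 11.2%. With the replicate block the counts were 5 in shRCOR2 (CHGA, CHGB, SCG2, SCG5 and SECISBP2L), beside 36.2% of all genes, and the same 5 in shRCOR1, beside 27.4%. The block gave 0 in shCTRL (0.0594%), 1 in the shRCOR2 difference from shCTRL (14.7%), 2 in the shRCOR1 difference (10.2%) and 3 between the knockdown lines (30.4%). The members had a median difference of 0.33 in shRCOR2 (all genes 0.07), −0.07 in shRCOR1 (all genes 0.04) and −0.10 in shCTRL (all genes −0.02). Before induction, 0 members and 0 of all genes (0%) were called between untreated shRCOR2 and shCTRL or between untreated shRCOR1 and shCTRL cells with limma, with or without the block. No member had an unadjusted p under 0.05 in either comparison, while 123 and 114 of all genes did. The comparisons share their shCTRL libraries.

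**Figure D2:**
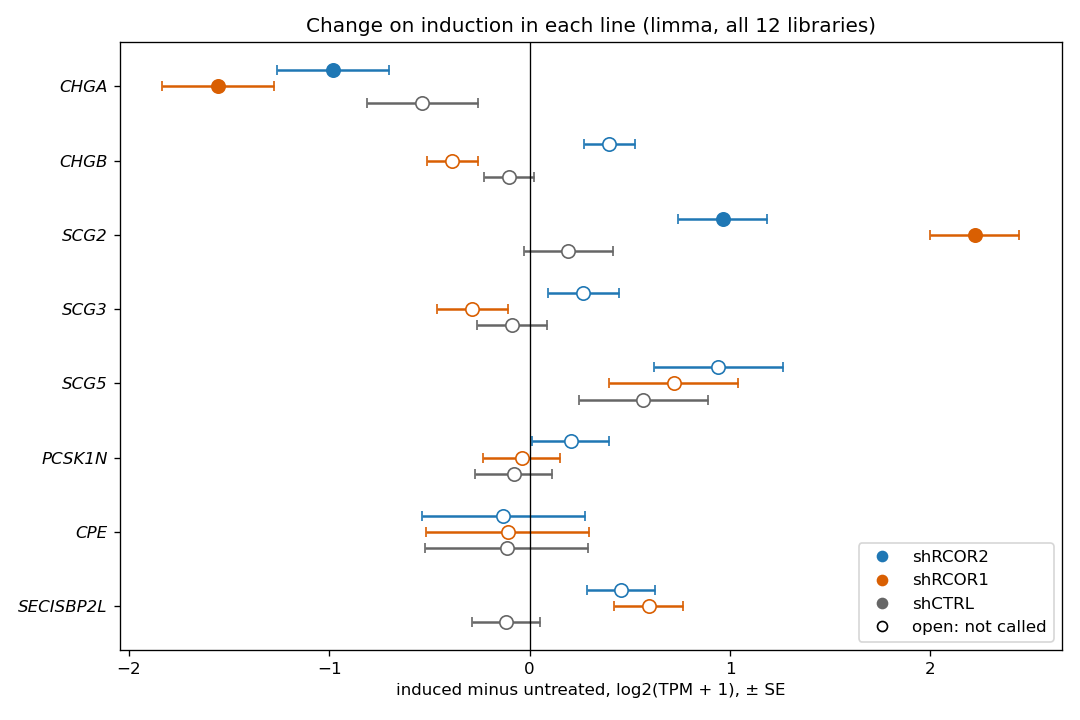
Induced minus untreated difference of the 8 tested members on the log2(TPM + 1) scale, with its standard error, in shRCOR2 (blue), shRCOR1 (orange) and shCTRL (grey) cells; filled points passed an adjusted p of 0.05 in limma. CHGA is lower and SCG2 higher in both knockdown lines, while CHGB lies on opposite sides of 0 in them without being called in either.

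The make-up of the granin mRNA pool is given as a description, without a test. The pool is taken as the summed TPM of the 6 granins and granin-like genes CHGA, CHGB, SCG2, SCG3, SCG5 and PCSK1N. CHGA made up 74.1% and 73.7% of it in induced shRCOR2 cells, against 88.1% and 88.5% in untreated ones. It made up 75.2% and 66.9% in induced shRCOR1 cells, against 89.5% and 88.8% in untreated ones. In shCTRL the share was 86.6% and 79.8% in induced cells, against 88.5% and 87.1% in untreated cells. The induced share was thus below both untreated shares of the same line in all 3 lines, with the smallest gap in shCTRL. CHGB took 14.6% ± 0.0178 of the pool in induced shRCOR2 cells, against 6.69% ± 0.245 in untreated ones (SD, n = 2 each). Its share was also higher in induced shRCOR1 cells, 11.2% ± 2.14 against 6.22% ± 0.469, although its TPM was lower there. In shCTRL the CHGB share was 8.78% ± 1.96 in induced cells, against 6.80% ± 0.353 in untreated ones. SCG2 took 8.997% ± 1.96 in induced shRCOR1 cells, against 0.796% ± 0.0907 in untreated ones. The SCG2 share was 2.99% ± 0.266 in induced shRCOR2 cells, against 0.910% ± 0.0222 in untreated ones. In shCTRL it was 1.92% ± 1.30 in induced cells, against 1.09% ± 0.292 in untreated ones. The ratio of CHGA to SCG2 TPM does not depend on how a library is scaled to its total. Its mean was 24.8 in induced shRCOR2 cells, against 97.1 in untreated ones, 8.16 in induced shRCOR1 cells, against 113 in untreated ones, and 57.5 in induced shCTRL cells, against 83.9 in untreated ones. In induced shCTRL cells the 2 ratios were 86.8 and 28.1, so replicate 2 came near the induced shRCOR2 values of 26.5 and 23.2. CHGA and SCG2 were chosen for this ratio after their values were seen.

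**Figure D3:**
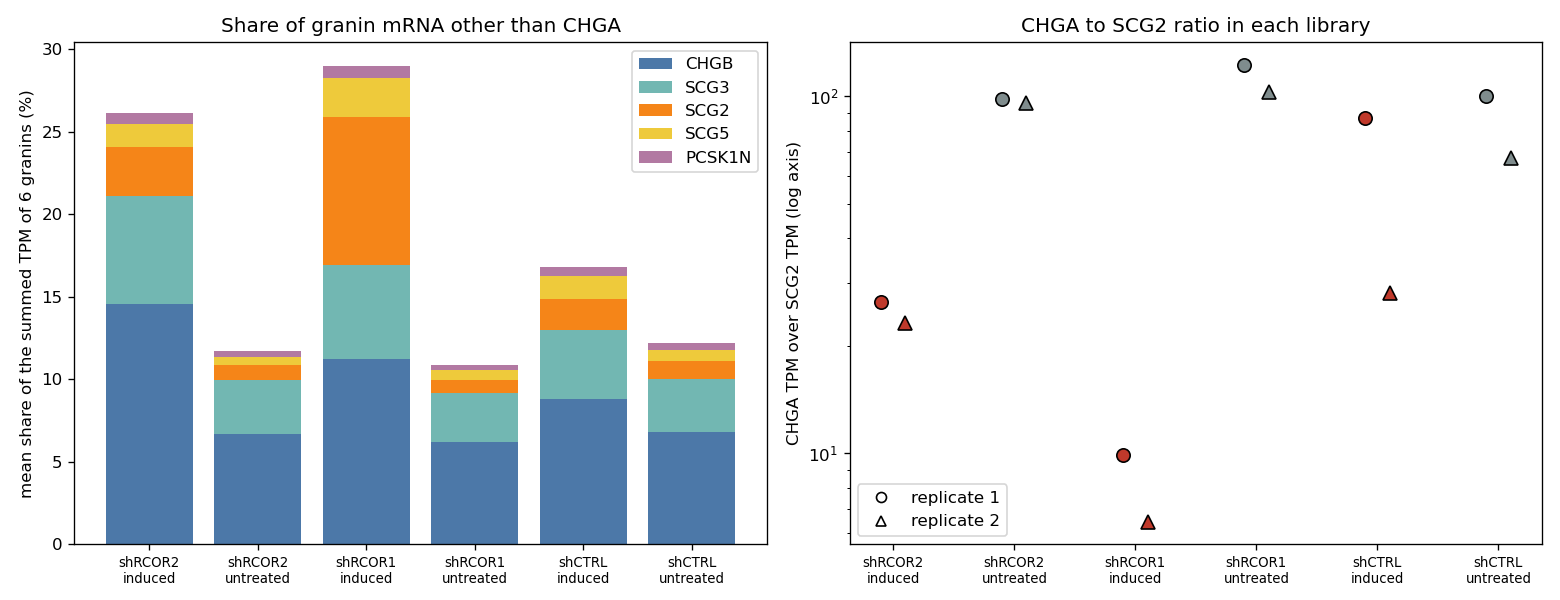
Left, mean share (%) of the summed TPM of 6 granins taken by each granin other than CHGA, by group, stacked from 0; right, the ratio of CHGA to SCG2 TPM in each library on a log axis, with circles for replicate 1, triangles for replicate 2, red for induced and grey for untreated cells. SCG2 is the share that stands out in induced shRCOR1 cells, and the ratio is lowest there, at 9.88 and 6.44.

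The summed level of the 8 adrenergic markers, to which MYCN alone gave 1042 to 3020 TPM per library, was lower in the induced than in the untreated libraries of both knockdown lines. This sum was 3553 to 3807 TPM in induced shRCOR2 cells, against 5880 to 5881 TPM in untreated ones, and 4843 to 4934 TPM in induced shRCOR1 cells, against 6074 to 6198 TPM in untreated ones. In shCTRL it was 4415 to 5789 TPM in induced cells, against 5232 to 5928 TPM in untreated cells. The 5 mesenchymal markers, 3 of which reached 1 TPM, summed to 23.8 to 55.7 TPM in induced shRCOR1 cells, against 6.996 to 22.5 TPM in untreated ones. They summed to 8.59 to 13.1 TPM in induced shRCOR2 cells, against 7.46 to 37.9 TPM in untreated ones, and to 9.64 to 91.1 TPM in induced shCTRL cells, against 11.8 to 100.3 TPM in untreated ones. Of the 3 epithelial markers only EPCAM reached 1 TPM, and the list summed to 3.18 to 4.13 TPM in induced shRCOR1 cells, against 0.286 to 0.309 TPM in untreated ones, and to 1.17 to 1.68 TPM in induced shRCOR2 cells, against 0.218 to 0.582 TPM in untreated ones. In shCTRL it summed to 0.206 to 1.55 TPM in induced cells, against 0.143 to 0.376 TPM in untreated cells. The part of these shifts in the granin values was not tested. REST, the repressor that recruits CoREST to neuronal genes, had 1.07 to 7.06 TPM and was not called without the replicate block. In shRCOR1 its difference was 1.24 ± 0.53 (limma, adjusted p = 0.196), and with the block it was called higher there (adjusted p = 0.0107).

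The other genes of the pathway were described from 4 lists. Of all genes tested, 7.81% were called higher and 6.47% lower in shRCOR2 (block: 21.4% and 14.8%), and 4.98% higher and 3.64% lower in shRCOR1 (block: 15.4% and 12.1%). Of 7 other proprotein convertases, 5 were tested. None was called in any comparison with limma. An unadjusted p under 0.05 was found for 2 in shRCOR2 and 1 in shRCOR1, beside 4993 and 4042 of all 16842 genes. The replicate block called 3 and 1 of the 5. The median difference of these convertases was 0.26 in shRCOR2 and −0.00372 in shRCOR1. Among 13 tested genes of 14 for other granule cargo, enzymes and membrane proteins, 0 rose and 2 fell in shRCOR2 (block: 1 and 4), and the median was −0.23. In shRCOR1, 3 rose and 1 fell (block: 3 and 4), and the median was 0.05. Among 28 tested genes of 31 for granule formation and release, 3 rose and 5 fell in shRCOR2 (block: 11 and 5), and the median was 0.21. In shRCOR1, 1 rose and 1 fell (block: 8 and 1), and the median was 0.23. None of these genes was called in shCTRL, where 1 of the formation and release genes had an unadjusted p under 0.05, beside 938 of all genes. With the block 4 of them did, beside 2642 of all genes.

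VGF, which encodes a granin-family neuropeptide precursor, was the gene of these lists with the largest change. It had 227 and 479 TPM in induced shRCOR1 cells, against 17.4 and 16.3 TPM in untreated ones. It had 23.7 and 20.6 TPM in induced shRCOR2 cells, against 17.2 and 14.1 TPM in untreated ones, and 18.2 and 6.41 TPM in induced shCTRL cells, against 17.4 and 8.51 TPM in untreated ones. The induced shRCOR1 libraries thus exceeded all others, as for SCG2. VGF rose by 4.21 ± 0.49 in shRCOR1 (limma, adjusted p = 0.00256), and that change exceeded the shCTRL change by 4.36 ± 0.70 (adjusted p = 0.0292, lost in 9 of 12 fits that left out a library, 3.67 to 5.05, and at 0.0552 with no filter). In the same line QPCT, the enzyme that forms N-terminal pyroglutamate, rose by 1.27 ± 0.26 (adjusted p = 0.0191). PTPRN, a granule membrane protein, rose by 0.46 ± 0.11 (adjusted p = 0.0420, lost in 10 of the 12 fits, 0.41 to 0.51). PTPRN was also lost with no filter (adjusted p = 0.0608), quantile normalization (0.0521) and without mitochondrial genes (0.124). ATP6AP2, an accessory protein of the proton pump that acidifies granules, fell by 0.58 ± 0.11 (adjusted p = 0.0161). In shCTRL the induced and untreated means were 74.1 and 65.5 TPM for PTPRN, 8.85 and 9.28 TPM for QPCT, and 55.8 and 58.0 TPM for ATP6AP2. Without the block, VGF was the only gene of this list whose shRCOR1 change was called against shCTRL. The QPCT call was lost without any of the 4 shRCOR1 libraries (1.19 to 1.34), and that of ATP6AP2 without either untreated library or induced replicate 2 of that line (−0.74 to −0.42). VGF in shRCOR1 kept its call in all 12 fits (3.67 to 4.75).

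SLC18A2 encodes the transporter that loads monoamines into vesicles. In shRCOR1, where it was not called, it averaged 48.4 ± 4.11 TPM in induced and 81.6 ± 14.2 TPM in untreated cells (SD, n = 2 each). In shCTRL the means were 73.7 ± 15.6 and 75.0 ± 14.9 TPM. It had 20.3 and 38.8 TPM in induced shRCOR2 cells, against 66.8 and 87.1 TPM in untreated ones, and fell by 1.41 ± 0.30 on the log2 scale (limma, adjusted p = 0.0180). The groups did not overlap, and the call was lost without either untreated library or induced replicate 1 of that line (−1.86 to −0.96). GNAS, whose locus yields a granin-like secretory protein besides the G-protein subunit, fell by 0.55 ± 0.12 in that line (adjusted p = 0.0207), a call lost without any of the line's 4 libraries (−0.64 to −0.46) and with no filter (adjusted p = 0.0796), and gene-level values do not separate the products. GNAS was lower in induced shCTRL cells too, at 3266 ± 136 TPM against 3601 ± 70.3 TPM in untreated ones (SD, n = 2 each). Its shRCOR2 change was not called against shCTRL without the block. RAB27B, a GTPase of granule docking, had 3.09 and 3.74 TPM in induced shRCOR2 cells, against 12.03 and 14.3 TPM in untreated ones, and 3.42 and 4.55 TPM in induced shRCOR1 cells, against 12.3 and 14.7 TPM in untreated ones. In shCTRL it had 9.21 and 10.5 TPM in induced cells, against 11.4 and 12.6 TPM in untreated cells. The induced knockdown libraries were below all others. RAB27B fell by 1.68 ± 0.17 in shRCOR2 (limma, adjusted p = 9.72e-04) and by 1.54 ± 0.17 in shRCOR1 (adjusted p = 0.00183), and both calls held whichever library was left out. It was the gene of these lists called against shCTRL in both lines (−1.42 ± 0.24, adjusted p = 0.0280, and −1.29 ± 0.24, adjusted p = 0.0438), although those calls were lost in 9 and 12 of the 12 fits that left out a library (−1.54 to −1.31 and −1.45 to −1.12). Without mitochondrial genes they were lost too (adjusted p = 0.0562 for shRCOR2 and 0.0824 for shRCOR1), as with coverage (0.0691 and 0.140), and for shRCOR1 with no filter (0.0564). Against shCTRL, the formation and release list had 0 higher and 1 lower changes in shRCOR2 (block: 3 and 4) and 0 and 1 in shRCOR1 (block: 5 and 1). The cargo list had 0 and 0 in shRCOR2 (block: 0 and 2) and 1 and 0 in shRCOR1 (block: 2 and 1). Of all genes tested, 2.09% were called in either direction against shCTRL in shRCOR2 (block: 14.7%) and 1.28% in shRCOR1 (block: 10.2%).

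Some genes of release differed between the knockdown lines. RAB27A, the relative of RAB27B, had 1.68 and 1.89 TPM in induced shRCOR2 cells, against 3.93 and 4.64 TPM in untreated ones. It had 6.41 and 8.73 TPM in induced shRCOR1 cells, against 3.52 and 4.31 TPM in untreated ones. It fell by 0.92 ± 0.23 in shRCOR2 (limma, adjusted p = 0.0302), and the shRCOR2 change minus the shRCOR1 change was −1.71 ± 0.32 (adjusted p = 0.0127). CADPS, a granule priming factor, rose by 0.91 ± 0.16 in shRCOR2 (adjusted p = 0.00831) and differed between the lines by 1.04 ± 0.22 (adjusted p = 0.0210). ARFIP1, which acts in granule budding at the trans-Golgi, fell by 0.92 ± 0.17 in shRCOR2 (adjusted p = 0.00966). SYT11 of the synaptotagmin family rose by 0.80 ± 0.11 in shRCOR1 (adjusted p = 0.00444). Between the lines, the synaptotagmin gene SYT4 differed by 1.07 ± 0.29 (adjusted p = 0.0474) and SNAP25, a SNARE of exocytosis, by −0.998 ± 0.15 (adjusted p = 0.00626). In shCTRL the induced and untreated means were 21.1 and 15.4 TPM for SYT4, against 23.9 and 14.8 TPM in shRCOR2. The shCTRL means were 19.3 and 16.3 TPM for CADPS, 4.91 and 4.69 TPM for RAB27A, and 26.3 and 29.5 TPM for ARFIP1. For SYT11 they were 74.4 and 72.3 TPM, and for SNAP25 43.9 and 45.1 TPM. RAB27B was the only gene of this list called against shCTRL without the block. In all, 2 genes of this list had a higher and 5 a lower change in shRCOR2 than in shRCOR1 (block: 4 and 8), beside 5.2% and 5.97% of all genes (block: 15.7% and 14.7%). Of the cargo list, 0 had a higher and 2 a lower change (block: 2 and 6), namely VGF (−3.73 ± 0.70, adjusted p = 0.0126) and PTPRN (−0.69 ± 0.16, adjusted p = 0.0301). The VGF difference was lost without untreated shRCOR1 replicate 1 or induced shRCOR2 replicate 2 (−4.27 to −3.19), and that of PTPRN without any of the 8 knockdown-line libraries (−0.74 to −0.64) or without mitochondrial genes (adjusted p = 0.0826). The calls of SYT11 and of the SNAP25 difference held whichever library was left out. Those of CADPS in shRCOR2 were lost without untreated replicate 2 or either induced library of that line (0.76 to 1.06), those of ARFIP1 without untreated replicate 1 or induced replicate 1 (−1.09 to −0.75), and those of RAB27A without any of the line's 4 libraries (−1.02 to −0.82). Between the lines, the CADPS call was lost in 6 (0.88 to 1.21), the RAB27A call in 3 (−1.91 to −1.52) and the SYT4 call in 9 (0.86 to 1.29) of the 12 fits that left out a library. SYT4 was also lost with no filter (adjusted p = 0.0956) and without mitochondrial genes (0.0604), and RAB27A in shRCOR2 with a pseudocount of 5 (0.0557) and with no filter (0.0669).

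**Figure D4:**
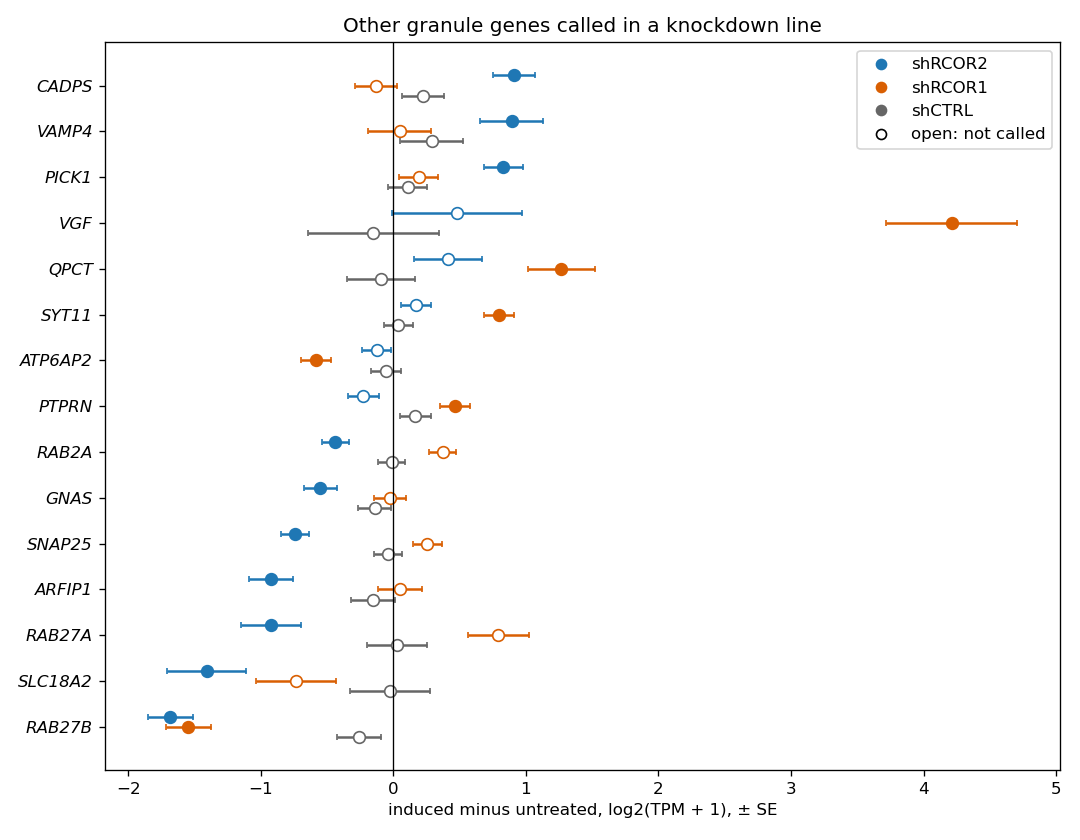
Induced minus untreated difference on the log2(TPM + 1) scale, with its standard error, of the 15 other granule genes called in a knockdown line, in shRCOR2 (blue), shRCOR1 (orange) and shCTRL (grey) cells; filled points passed an adjusted p of 0.05 in limma. VGF stands apart in shRCOR1 cells, RAB27B is lower in both knockdown lines, and no shCTRL point was called.

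Around SECISBP2L, 6 selenoprotein synthesis factors were tested. In shRCOR2, SECISBP2 rose by 0.45 ± 0.12 (limma, adjusted p = 0.0382) and EEFSEC, the elongation factor for selenocysteine, fell by 0.65 ± 0.13 (adjusted p = 0.0158). In shRCOR1, TRNAU1AP, a protein that associates with the selenocysteine transfer RNA, fell by 0.39 ± 0.10 (adjusted p = 0.0492). On leaving out a library, the SECISBP2 call was lost in 8 of 12 fits (0.41 to 0.50), that of EEFSEC in the 4 without a shRCOR2 library (−0.70 to −0.61) and that of TRNAU1AP in 10 (−0.44 to −0.34). SECISBP2 was also lost with no filter (adjusted p = 0.0597) and without mitochondrial genes (0.0841). TRNAU1AP was also lost with a pseudocount of 5 (adjusted p = 0.0532), median-of-ratios scaling (0.0669), quantile normalization (0.1002), coverage (0.0613) and without mitochondrial genes (0.0519). Between the knockdown lines, TRNAU1AP differed by 0.74 ± 0.14 (adjusted p = 0.0141, lost in 5 of the 12 fits and at 0.0544 with quantile normalization), and the list had 1 higher and 0 lower changes (block: 2 and 1). The list had 1 rise and 1 fall in shRCOR2 (3 and 1 with the block) and 0 rises and 1 fall in shRCOR1 (0 and 1), with medians of 0.31 and −0.03. Against shCTRL, it had 0 higher and 0 lower changes in each knockdown line (block: 0 and 1 in each). Of all genes, 2.09% were called there in shRCOR2 and 1.28% in shRCOR1 (block: 14.7% and 10.2%). None was called in shCTRL. There the induced and untreated means were 40.5 and 38.9 TPM for SECISBP2, 31.8 and 30.5 TPM for EEFSEC, and 16.5 and 14.8 TPM for TRNAU1AP. SECISBP2L was above its untreated libraries in both knockdown lines, but without the block limma called it in neither. No factor of this list was called higher in both. By means, SEPHS2 was higher in induced than untreated cells of both lines (49.7 against 40.4 TPM in shRCOR2, 47.6 against 42.1 TPM in shRCOR1). EEFSEC was lower in induced shRCOR2 cells (19.5 against 31.2 TPM). In shRCOR1 its means were 31.2 ± 2.53 and 32.5 ± 2.89 TPM (SD, n = 2 each), a gap smaller than either SD. In shCTRL, SEPHS2 averaged 40.0 TPM in induced and 40.7 TPM in untreated cells.

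Over the 12 libraries, which share their lines and replicate numbers, the members fell into loose sets. As a description with no test, Pearson's r of log2(TPM + 1) was −0.89 for CHGA and SCG2, −0.83 for CHGA and SECISBP2L and −0.75 for CHGA and SCG5. It was 0.91 for CHGB and SCG3, and 0.87 for SCG2 and SECISBP2L. The CPE and CHGA pair had −0.08. Among the 9405 other genes with a mean of at least 10 TPM, those most like CHGA were KCNJ12 (r = 0.97) and SLC16A1 (0.96), those most like CHGB FAHD1 (0.98) and SDAD1 (0.97), and STMN4 (0.97) was among those most like SCG2. CSTF2T (0.96) and RBM15B (0.95) were most like SCG3, FKBP1B (0.91) and NECTIN2 (0.90) most like SCG5, and CAMKK2 (0.92) and SLC38A10 (0.91) most like PCSK1N. PXDN (0.96) and SCUBE1 (0.95) were most like CPE, and HIPK3 (0.98) and SMURF2 (0.97) most like SECISBP2L.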

How the data were processed

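The submitters' processing notes name GRCh38/hg38 with StringTie 2.1.7, HISAT2 2.2.1 and Trim Galore 0.6.7. Annotation release, strand setting and treatment of multimapping reads: not given in the sources used here. The authors deposited for each library a gene table with TPM, a length-corrected share of the library. The deposited FPKM and the deposited coverage (mean reads per base of a gene) served as alternatives. There are no read counts here, and therefore no intervals for counting error. A proxy for depth, the 95th percentile over genes of coverage divided by FPKM, was 13.1 to 28.3 across libraries (a 2.16-fold range), and low values are least certain at its low end.

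A model of 6 group means was fitted to log2(TPM + 1) over the 12 libraries (limma 3.58.1 in R 4.3.3, trend in the variance), over the 16842 genes with at least 1 TPM in at least 2 libraries, and p-values were adjusted over all of them (Benjamini-Hochberg). A gene was called at an adjusted p below 0.05. Fold changes on this scale understate the change of low genes. The procedure was tested on simulated data. Groups came from the sample titles. Comparisons were induced against untreated cells in each line, the differences between those changes, and the untreated knockdown lines against untreated shCTRL. Replicate numbers paired the samples: deviations of replicate 1 from the group mean correlated at 0.37 to 0.75 in all 15 pairs of groups, so the fit with the replicate block is given where it changes a call.

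The 10 members, the lists and the markers were chosen with earlier results of these data known. All members are named, and from each list at most 4 called genes per comparison by size of change. For likeness, the 2 genes with the highest r are named. A promoter, a marker and a gene of the likeness search are not reported here. Alternatives were pseudocounts of 0.1 and 5, no filter, FPKM, median-of-ratios scaling, quantile normalization, leaving out mitochondrial genes, the replicate block and leaving out each library. Reading coverage in place of TPM was added after seeing the data. Promoters came from RefSeq (GRCh38.p14) by symbol, and CHGB and SCG2 had none in the table. Figures were drawn with matplotlib 3.10.9 in Python 3.11.15.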

Additional observations from a re-analysis of the deposited data

Results flagged for a closer look

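For 3 results the test of the difference between lines passed its threshold (limma, adjusted p over all genes). SCG2 changed more in shRCOR1 than in shCTRL cells, by 2.03 ± 0.31 on the log2 scale (adjusted p = 0.0274), with both induced shRCOR1 libraries above the other 10 libraries. CHGB differed between the knockdown lines by 0.78 ± 0.18 (shRCOR2 change minus shRCOR1 change, adjusted p = 0.0264), with 2 of 2 induced libraries above the untreated ones in shRCOR2 and 2 of 2 below them in shRCOR1. SCG2 differed between the same lines by −1.26 ± 0.31 (adjusted p = 0.0372), higher on induction in 2 of 2 libraries of each line and more so in shRCOR1. These orders of libraries describe the same values that were tested and add no support. How many of all genes show such an order was not counted. The SCG2 difference between the knockdown lines was lost with no filter (adjusted p = 0.0850) and without mitochondrial genes (0.0694), and that of CHGB with median-of-ratios scaling (0.0810). Each group holds 2 libraries, and leaving out a single library could end each of these 3 calls, as given above. Over those fits the SCG2 excess over shCTRL was 1.64 to 2.41. The difference between the knockdown lines was 0.72 to 0.85 for CHGB and −1.41 to −1.11 for SCG2.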

How the results depend on the processing

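With 2 libraries per group and no read counts, low genes such as PCSK1 and PCSK2 could not be resolved, and most calls rest on few residual degrees of freedom. No scaling moved the median of all genes by over 0.1. The number of members called in shRCOR2 (2) was 0 with no filter, 1 with median-of-ratios scaling and 5 with the replicate block, and 0 to 3 when a library was left out. In shRCOR1 (2) it was 5 with the replicate block and 1 to 3 when a library was left out. In shCTRL it was 0 throughout. For the shRCOR2 change against shCTRL (0) it was 1 with the replicate block and 0 in each fit without a library, and for the shRCOR1 change against shCTRL (1) it was 2 with the block and 0 to 1. Between the knockdown lines (2) it was 1 with no filter, with median-of-ratios scaling and without mitochondrial genes, and 0 to 2 when a library was left out. The replicate block changed no other call of a member than those given. Coverage in place of TPM, chosen after seeing the data, changed the call of SECISBP2L in shRCOR1 alone among the members, and ended those of RAB27B against shCTRL (−0.71 for shRCOR2 and −0.60 for shRCOR1) and of TRNAU1AP in shRCOR1 (−0.30). A lone library left in a group was assumed to vary like the others. The causes of these changes were not tested.

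Values that changed sign were all uncalled. For the shRCOR1 change against shCTRL they were PCSK1N at −0.030 (FPKM) and −0.019 (median-of-ratios), and CPE at −0.073 (FPKM), −0.058 (median-of-ratios), −0.035 (quantile) and −0.022 (mitochondrial genes left out). Between the knockdown lines CPE was 0.070 (FPKM) and 0.014 (mitochondrial genes left out). The sign also turned on leaving out a library, with these ranges. In shRCOR2 they were CPE −0.46 to 0.19 and PCSK1N −0.0011 to 0.41. In shRCOR1 they were CPE −0.31 to 0.091 and PCSK1N −0.20 to 0.12. In shCTRL they were CHGB −0.24 to 0.030, CPE −0.63 to 0.40, PCSK1N −0.26 to 0.10, SCG2 −0.19 to 0.58, SCG3 −0.29 to 0.11 and SECISBP2L −0.30 to 0.058. For shRCOR2 against shCTRL changes they were CPE −0.53 to 0.49 and SCG5 −0.18 to 0.93. For shRCOR1 against shCTRL changes they were CPE −0.51 to 0.52, PCSK1N −0.14 to 0.22, SCG3 −0.40 to 0.0069 and SCG5 −0.043 to 0.35. Between the knockdown lines they were CPE −0.35 to 0.30, SCG5 −0.33 to 0.78 and SECISBP2L −0.32 to 0.038. Between untreated shRCOR2 and shCTRL cells they were CHGA −0.072 to 0.33, CHGB −0.038 to 0.23, CPE −0.76 to 0.26, PCSK1N −0.28 to 0.13, SCG3 −0.071 to 0.34, SCG5 −0.99 to 0.12 and SECISBP2L −0.15 to 0.0026. Between untreated shRCOR1 and shCTRL cells they were CPE −0.81 to 0.21, PCSK1N −0.24 to 0.11, SCG3 −0.032 to 0.37 and SCG5 −0.018 to 0.37.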

Other observations

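The coverage and FPKM columns rank the members differently. For CPE, coverage was 2.94% to 2.95% of the value that its FPKM would give at the upper level of the coverage to FPKM ratio in the same library, and 2.27% of tested genes had a lower share. For SCG5 the share was 12.9% to 14.1%. It was 61.6% to 64.0% for CHGA, 54.5% to 55.0% for CHGB, 93.8% to 94.5% for SCG2, 99.1% to 99.5% for SCG3, 75.4% to 76.6% for PCSK1N and 75.8% to 81.0% for SECISBP2L. On a coverage scale CPE had 1.48 to 3.26 units in place of 50.3 to 110.7 TPM, and SCG5 1.23 to 5.44 units in place of 8.73 to 39.8 TPM. The reason for the low shares of CPE and SCG5 was not tested.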
